A study of Mus musculus with 4 samples.

Results

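The genes described here encode the proteasome, the protease complex that degrades ubiquitin-tagged proteins, and the factors that assemble and activate it. They were the rows of the deposited table whose symbol begins with Psma, Psmb, Psmc, Psmd, Psme or Psmg and a digit, without the immunoproteasome genes Psmb8, Psmb9 and Psmb10. This gave 46 of 24421 genes. The cells were 4T07, an established murine mammary carcinoma line (strain Balb/cfC3H). According to the labels, 2 libraries were from cells with Six2 overexpression and 2 from control cells, all harvested 48 hours after plating in the same medium with calf serum. The labels give neither the vector nor its promoter, and do not say whether replicates were separate cultures. The p-values therefore set the difference between groups against the scatter of these libraries only, and that scatter may be technical.

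Levels are given as RPKM, a read count divided by the gene's length and the library's read total. The read totals behind them lay between 41881864 and 81524250 per library. Six2, a homeobox transcription factor gene, was at 0.0285 and 0 RPKM in the libraries labelled Six2, whereas it was listed at 0 in both control libraries. The values therefore do not show the labelled overexpression, and groups are named here by their labels. The epithelial keratin genes Krt8 and Krt18 were each above 389 RPKM in all 4 libraries. Epcam stayed below 1 RPKM in all of them, and the cadherin gene Cdh1 was at 0.186 and 0.103 RPKM in the libraries labelled Six2, against 14.6 and 8.40 RPKM in control libraries. All 6 leukocyte markers, all 4 endothelial markers and 5 of 6 fibroblast markers were below 1 RPKM in every library. The remaining fibroblast marker, Pdgfra, was at 6.83 and 4.81 RPKM in the libraries labelled Six2, against 8.85 and 4.78 RPKM in control libraries.

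The proteasome consists of a barrel-shaped 20S core and 19S caps. Rings of alpha subunits (Psma genes) gate the core, and rings of beta subunits (Psmb genes) carry the proteolytic sites inside it. The cap holds a ring of ATPases (Psmc genes), which unfold substrates, and non-ATPase subunits (most Psmd genes), which bind and deubiquitinate them. The subunits are built in fixed proportions, and their genes are known to be induced together by the transcription factor NFE2L1 when the proteasome is inhibited.

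Of the 46 genes, 43 passed a filter of 1 RPKM in at least 2 libraries, and all 43 were above 16 RPKM in all 4 libraries. Their reads ranged between 458 and 28656 per gene and library. The other 3 were Psma8, known from testis, Psmb11, known from thymus, and Psme2b, a retrogene copy of Psme2. Psma8 was listed at 0 throughout, and Psmb11 and Psme2b had at most 1 read in any library. Psmc3ip, which the symbol pattern includes, encodes a cofactor of meiotic recombination and no proteasome subunit, so 42 genes of the complex were tested. Proteasome genes have processed copies elsewhere in the genome, and how the authors counted reads shared between copies is not stated, which leaves their assignment to a copy uncertain.

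None of the 43 genes passed the test between the groups, which took no account of replicate number. In such bulk samples a lower level in each cell and fewer cells with the transcript cannot be told apart. With limma and Benjamini-Hochberg adjustment over all 10654 genes tested, 0 members had an adjusted p under 0.05, against 0.113% of all genes (0.0282% higher and 0.0845% lower in the libraries labelled Six2), and the smallest adjusted p among members was 0.180. At an unadjusted p under 0.05, 9 of 43 members (20.9%) stood apart, 5 higher and 4 lower in the libraries labelled Six2, against 17.0% of all genes. That share is near the background. With 1 library left out, the lone library of its group is assumed to vary like the other group. The 9 then became 1 without Six2 replicate 1 and 0 without Six2 replicate 2, against 11.3% and 10.4% of all genes. They became 1 without control replicate 1 and 2 without control replicate 2, against 8.21% and 13.3% of all genes. With voom on recovered reads 0 members passed after adjustment and 7 had an unadjusted p under 0.05, against 17.0% of all genes. The median log2 difference of the members was 0.05, beside -0.01 for all genes tested, on the log2(RPKM + 1) scale used for every difference below. It was -0.02 without control replicate 1 and -0.03 without Six2 replicate 2, but 0.15 without control replicate 2 and 0.17 without Six2 replicate 1. The 95% intervals of all 43 members lay within a 2-fold difference in either direction, and those of 32 members within 1.5-fold.

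**Figure D1:**
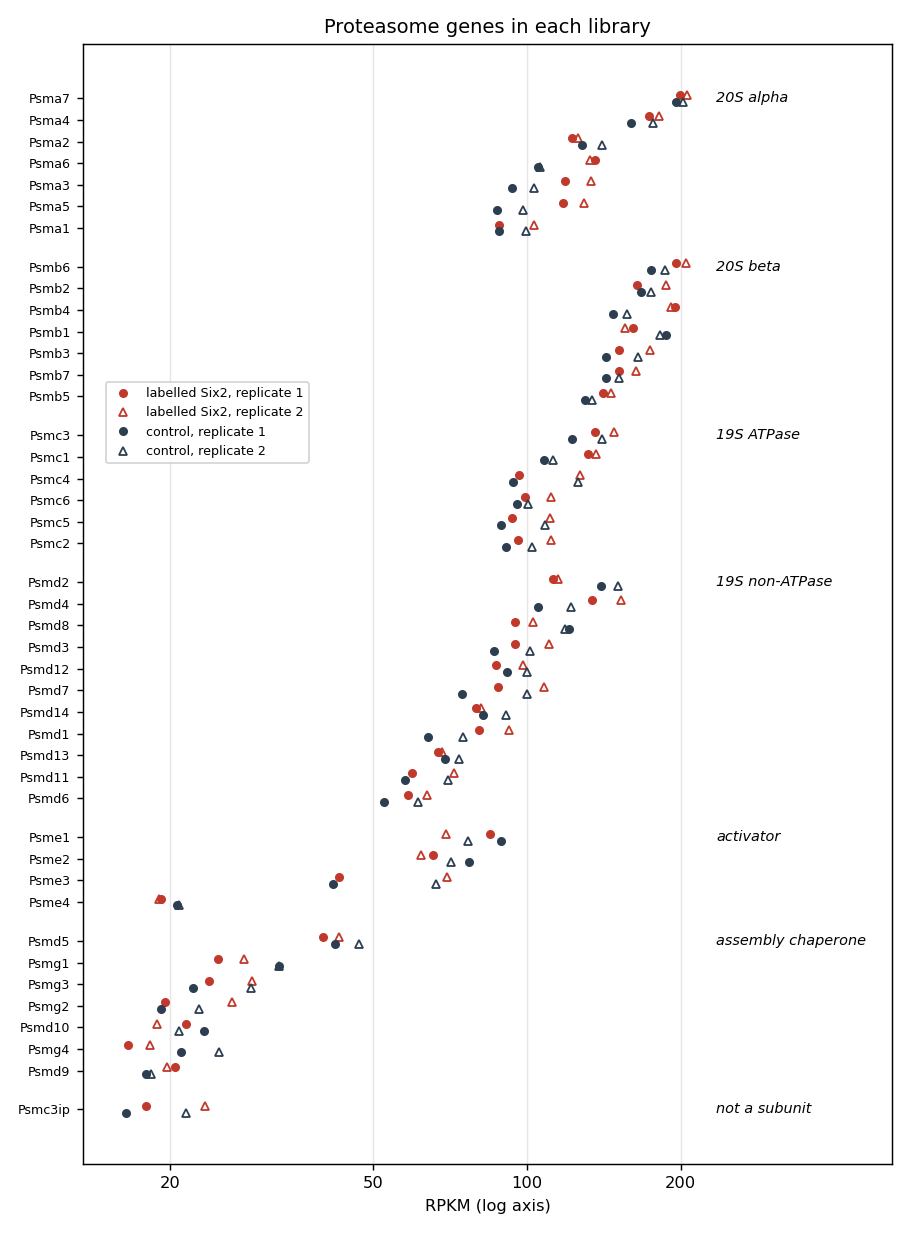
RPKM of the 43 tested genes in each of the 4 libraries on a log axis, grouped by role and ordered by mean level, with libraries labelled Six2 in red and control libraries in dark blue, replicate 1 filled and replicate 2 open. Core and cap subunits sat between 52 and 206 RPKM in every library, and assembly chaperones between 16.6 and 46.9 RPKM.

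Per length, the 31 tested core and cap subunits that the symbol rule selected spanned mean levels of 58.95 to 201 RPKM. The SD of their log2 RPKM within a library was 0.489 and 0.451 in the libraries labelled Six2 and 0.495 and 0.443 in control libraries. Their summed level was 3723 and 4045 RPKM in the libraries labelled Six2, against 3492 and 3829 RPKM in control libraries. The 2 groups overlapped in this sum, with a ratio of means of 1.06. The 4 activator genes tested averaged between 19.9 and 79.9 RPKM and the 7 chaperone genes between 19.1 and 42.9 RPKM.

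**Figure D2:**
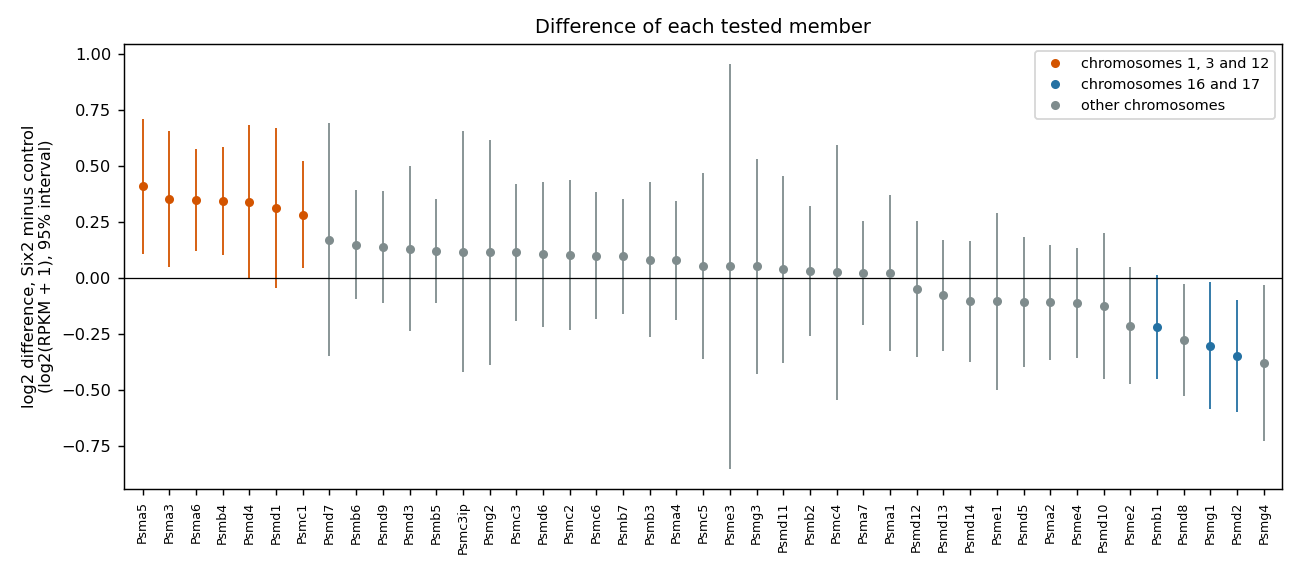
Log2 difference of each tested gene, libraries labelled Six2 minus control libraries on the log2(RPKM + 1) scale, with its 95% interval from limma, ordered by size and coloured by chromosome. The 7 genes at the left end, between 0.28 and 0.41, all lie on chromosomes 1, 3 and 12.

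The members' differences varied with the chromosome that holds the gene. The 7 members with the largest positive differences, Psma5, Psma3, Psma6, Psmb4, Psmd4, Psmd1 and Psmc1, were exactly the 7 tested members on chromosomes 1, 3 and 12. Those chromosomes had the highest median differences of the 20 chromosomes over all their tested genes, 0.33, 0.21 and 0.25 for chromosomes 1, 3 and 12, and the next highest median was 0.09 on chromosome 9. The 7 members had a median difference of 0.34 (0.28 to 0.41), and the 36 members elsewhere had a median of 0.04 (-0.38 to 0.17). At the other end, chromosomes 16 and 17 had the lowest medians, both -0.21. The 3 members there, Psmd2, Psmg1 and Psmb1, differed by -0.35, -0.30 and -0.22. Between these ends the signs often differed. Chromosomes 2, 4, 5, 7, 11 and 18 had medians between -0.06 and -0.02. Of their members, 3 of 5, 1 of 1, 3 of 3, 2 of 4, 7 of 9 and 1 of 1 differed by more than 0. On chromosomes 13 and X, with medians of -0.07 and -0.06, 0 of 2 and 0 of 1 did. Across the 43 members the difference of a member and the median of its chromosome had a Pearson r of 0.782 and a Spearman rho of 0.647. This is a description across genes that share libraries and, in part, chromosomes, and the chromosomes singled out were chosen after the values were seen.

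Nearer neighbours gave similar values. They are part of the genes behind the chromosome medians, so this is no separate observation. The median difference of the tested genes within 5 Mb of each member's start, the member left out, had a Pearson r of 0.776 with the member's own difference. Those window medians were 0.26, 0.28 and 0.26 around Psma3, Psma6 and Psmc1 on chromosome 12, 0.15, 0.24 and 0.24 around Psma5, Psmb4 and Psmd4 on chromosome 3, and 0.29 around Psmd1 on chromosome 1. Around Psmd2 the window median was -0.32. The windows of Psmb4 and Psmd4 shared most of their genes. With the chromosome median taken from every gene, 0 of 43 members had an unadjusted p under 0.05, against 11.9% of all genes. The SD of the members' differences was then 0.123, against 0.193 before, and their range was -0.31 to 0.20. Their median was then 0.07, against 0.05 before.

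**Figure D3:**
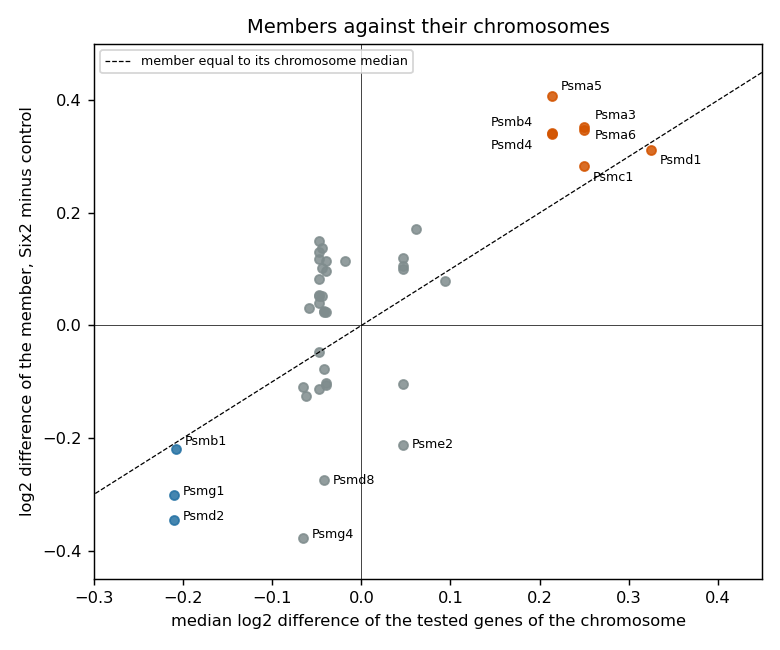
Log2 difference of each tested member, libraries labelled Six2 minus control libraries, against the median log2 difference of all tested genes on its chromosome, with chromosomes 1, 3 and 12 in orange and 16 and 17 in blue. Members on chromosomes 1, 3 and 12 sit at the upper right and those on 16 and 17 at the lower left. Psmg4, Psmd8 and Psme2 lie below the dashed line of equality.

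The promoters of members from both ends of that order are shown, with that of Psmb6 as a member with a match to the site bound by NFE2L1. Sequences are RefSeq promoters of GRCm38.p6, 250 bases before to 50 after the start, written along the gene's strand. Psmb4 (chr3:94886909-94887208, minus strand) and Psmd4 (chr3:95042565-95042864, minus strand) belong to genes 145733 bases apart. Psmc1 lies at chr12:100109952-100110251, plus strand, Psmd2 at chr16:20651402-20651701, plus strand, and Psmb6 at chr11:70525107-70525406, plus strand. Capitals mark matches to the antioxidant response element core TGACNNNGC, which NFE2L1 and NFE2L2 bind, or to the ETS core CCGGAAG, searched on both strands.
Psmb4: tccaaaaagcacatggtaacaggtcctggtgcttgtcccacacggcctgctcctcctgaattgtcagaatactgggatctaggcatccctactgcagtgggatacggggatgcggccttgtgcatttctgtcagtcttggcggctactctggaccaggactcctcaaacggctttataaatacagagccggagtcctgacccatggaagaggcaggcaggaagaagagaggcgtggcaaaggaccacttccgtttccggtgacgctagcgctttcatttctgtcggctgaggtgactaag
Psmd4: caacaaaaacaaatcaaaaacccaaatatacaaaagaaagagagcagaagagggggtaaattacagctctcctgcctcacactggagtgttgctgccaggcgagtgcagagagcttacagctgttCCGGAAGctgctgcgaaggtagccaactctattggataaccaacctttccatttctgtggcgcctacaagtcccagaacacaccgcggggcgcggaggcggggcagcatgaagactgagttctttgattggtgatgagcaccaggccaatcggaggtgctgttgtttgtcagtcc
Psmc1: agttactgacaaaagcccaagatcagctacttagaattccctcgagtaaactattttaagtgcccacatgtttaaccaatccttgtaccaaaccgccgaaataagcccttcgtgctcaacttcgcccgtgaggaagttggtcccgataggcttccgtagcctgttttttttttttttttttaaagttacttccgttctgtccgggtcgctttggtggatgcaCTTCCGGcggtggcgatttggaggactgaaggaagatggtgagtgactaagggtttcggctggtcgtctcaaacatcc
Psmd2: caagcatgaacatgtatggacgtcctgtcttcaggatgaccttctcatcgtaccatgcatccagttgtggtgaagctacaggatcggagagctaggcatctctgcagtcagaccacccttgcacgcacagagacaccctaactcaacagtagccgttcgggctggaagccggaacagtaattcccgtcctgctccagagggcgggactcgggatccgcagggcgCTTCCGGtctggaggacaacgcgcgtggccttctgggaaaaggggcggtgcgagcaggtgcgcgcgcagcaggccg
Psmb6: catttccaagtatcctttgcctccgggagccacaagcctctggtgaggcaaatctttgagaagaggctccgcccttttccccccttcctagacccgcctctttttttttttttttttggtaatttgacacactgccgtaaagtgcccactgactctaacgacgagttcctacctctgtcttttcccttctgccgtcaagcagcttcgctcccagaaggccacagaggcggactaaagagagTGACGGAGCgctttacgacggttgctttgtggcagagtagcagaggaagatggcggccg

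Promoters were matched by symbol for 38 of the 46 genes. The ETS core occurred in 15 of the 38 (39.5%), among them Psmd4, Psmc1 and Psmd2, and in 9.93% of all 27025 genes of the promoter table. The antioxidant response element core occurred in 6 of the 38 (15.8%), Psmb5, Psmb6, Psmc6, Psmd9, Psmd12 and Psme4, and in 14% of all genes. The promoter table also holds genes below the filter of 1 RPKM, whereas most members passed it. For both motifs the shares are therefore not like for like, and shares among expressed genes were not taken. Matches to the 2 motifs overlapped each other in 0 of the members' promoters. Of the 9 members with an unadjusted p under 0.05, 4 held the ETS core and 0 the antioxidant response element core in this window. Members with the ETS core were thus found at both ends of the order of differences.

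Counts of signs by role are to be read beside the 47.9% of all genes tested that differed by more than 0. Without control replicate 1 or Six2 replicate 2 those counts were lower. They were 5 and 5 of 7 alpha, 4 and 4 of 7 beta and 4 and 3 of 6 ATPase genes. Of 11 non-ATPase cap genes 3 and 5, and of 7 chaperone genes 1 and 1, differed by more than 0, against 47.9% and 47.6% of all genes. Without control replicate 2 or Six2 replicate 1 they were equal or higher: 6 of 7 alpha, 6 of 7 beta and 6 of 6 ATPase genes. In both of these fits 7 of 11 non-ATPase cap and 3 of 7 chaperone genes differed by more than 0, against 47.9% of all genes.

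Among the 7 alpha subunit genes tested, 6 differed by more than 0 and 1 by less, with a median of 0.08. Psma5 (GRCm38 chromosome 3, 108256926 to 108279974) was at 117 and 129 RPKM in the libraries labelled Six2, against 87.2 and 98.3 RPKM in control libraries. Psma3 (chromosome 12, 70974621 to 70996347) was at 119 and 133 RPKM in the libraries labelled Six2, against 93.4 and 103 RPKM in control libraries. Psma6 (chromosome 12, 55384222 to 55418454) was at 136 and 133 RPKM in the libraries labelled Six2, against 105 and 106 RPKM in control libraries. In all 3 genes both libraries labelled Six2 lay above both control libraries. The log2 differences were 0.41 for Psma5 (SE 0.112, limma adjusted p = 0.204), 0.35 for Psma3 (SE 0.113, adjusted p = 0.243) and 0.35 for Psma6 (SE 0.0849, adjusted p = 0.180). Less the chromosome median they were 0.19, 0.10 and 0.10. Psma7, the most abundant alpha subunit gene, was at 199 and 206 RPKM in the libraries labelled Six2, against 196 and 202 RPKM in control libraries, and the groups overlapped. Psma2 had the largest negative difference of the class, with 122 and 126 RPKM in the libraries labelled Six2, against 128 and 140 RPKM in control libraries (log2 difference -0.11, adjusted p = 0.636).

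Groups lay apart in this way, both libraries of a group above both of the other, for 21 of the 43 members (48.8%), against 47.4% of all genes. Of these, 11 were higher in the libraries labelled Six2, against 21.9% of all genes, and 10 lower, against 25.5%.

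Of the 7 beta subunit genes tested, 6 differed by more than 0 and 1 by less, with a median of 0.10. The catalytic subunit genes differed by 0.10 to 0.15. Psmb5, which carries the chymotrypsin-like site, was at 141 and 146 RPKM in the libraries labelled Six2, against 130 and 134 RPKM in control libraries (log2 difference 0.12, 95% interval -0.11 to 0.35). Psmb6, which carries the caspase-like site, was at 196 and 205 RPKM in the libraries labelled Six2, against 175 and 186 RPKM in control libraries (0.15, interval -0.10 to 0.39). Psmb7, which carries the trypsin-like site, was at 151.1 and 163 RPKM in the libraries labelled Six2, against 143 and 151.1 RPKM in control libraries (0.10, interval -0.16 to 0.35). Both libraries labelled Six2 lay above both control libraries for Psmb5 and Psmb6, while for Psmb7 the nearest libraries of the groups were level. None of these intervals excluded 0. The non-catalytic subunit genes Psmb4 and Psmb1 marked the ends of the class. Psmb4 (chromosome 3, 94884093 to 94886961) was at 195 and 192 RPKM in the libraries labelled Six2, against 148 and 157 RPKM in control libraries, a log2 difference of 0.34 (SE 0.0891, adjusted p = 0.196). Psmb1 (chromosome 17, 15475021 to 15499751) was at 161 and 156 RPKM in the libraries labelled Six2, against 187 and 182 RPKM in control libraries, a log2 difference of -0.22 (SE 0.0861, adjusted p = 0.313). Less the chromosome median these were 0.13 and -0.01.

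The immunoproteasome genes, which the choice of members left out, encode catalytic subunits that replace the constitutive ones after interferon exposure. Psmb8 was at 9.76 and 7.96 RPKM in the libraries labelled Six2, against 3.58 and 3.92 RPKM in control libraries (log2 difference 1.05, SE 0.139, adjusted p = 0.102), on chromosome 17 with its median of -0.21. Its level was 6.92% and 5.46% of that of its counterpart Psmb5 in the libraries labelled Six2, against 2.76% and 2.93% in control libraries. Psmb10 was at 18.8 and 17.0 RPKM in the libraries labelled Six2, against 14.2 and 15.7 RPKM in control libraries (log2 difference 0.245, limma adjusted p = 0.373). It stood at 12.4% and 10.4% of Psmb7 in the libraries labelled Six2 and 9.92% and 10.4% in control libraries. Psmb9 was below 1 RPKM throughout, at most 0.431% of Psmb6.

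All 6 ATPase genes differed by more than 0, with a median of 0.10, against 47.9% of all genes above 0, and the groups overlapped in 5 of them. Psmc1 (chromosome 12, 100110154 to 100123405) was at 132 and 136 RPKM in the libraries labelled Six2, against 108 and 112 RPKM in control libraries. Its log2 difference was 0.28 (SE 0.0883, adjusted p = 0.238), and 0.03 less the chromosome median. Psmc3, the most abundant, was at 136 and 148 RPKM in the libraries labelled Six2, against 122 and 140 RPKM in control libraries, with the groups overlapping.

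The 11 non-ATPase cap genes split into 6 above and 5 below 0. Psmd2, a scaffold subunit that docks ubiquitin shuttle factors and had the highest mean of the class over all 4 libraries, was at 113 and 115 RPKM in the libraries labelled Six2, against 139 and 151 RPKM in control libraries. Its difference was -0.35 (SE 0.0926, adjusted p = 0.202), and Psmd2 lies on chromosome 16, 20651652 to 20663414. Psmd8, a lid subunit, was at 94.9 and 103 RPKM in the libraries labelled Six2, against 121 and 119 RPKM in control libraries (-0.27, SE 0.093, adjusted p = 0.260). It lies on chromosome 7, whose median was -0.04, so that -0.23 remained less that median. Psmd4, a ubiquitin receptor, was at 134 and 153 RPKM in the libraries labelled Six2, against 105 and 122 RPKM in control libraries (0.34, SE 0.127, adjusted p = 0.296), so that it lay above Psmd2 in the libraries labelled Six2 and below it in control libraries. Psmd1, the scaffold that holds the ubiquitin receptor ADRM1, was at 80.5 and 92.4 RPKM in the libraries labelled Six2, against 64.0 and 74.9 RPKM in control libraries (0.31, SE 0.132, adjusted p = 0.340), and was chosen for its chromosome after its values were seen. Both libraries of a group lay apart from the other group for each of these 4 genes. The differences of the scaffold genes Psmd1 and Psmd2 thus had opposite signs, as did the medians of the chromosomes that hold them. Less those medians they were -0.013 for Psmd1 (SE 0.132) and -0.14 for Psmd2 (SE 0.0924), each within the scatter. Neither difference passed the test.

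The 4 activator genes tested encode caps other than the 19S complex. Psme1 and Psme2, partners in an interferon-inducible ring, lie 5912 bases apart on chromosome 14. Psme2 was at 65.4 and 62.0 RPKM in the libraries labelled Six2, against 77.0 and 70.9 RPKM in control libraries (-0.21, SE 0.0976, adjusted p = 0.371). Psme1 was at 84.7 and 69.5 RPKM in the libraries labelled Six2, against 88.8 and 76.6 RPKM in control libraries, with the groups overlapping. Psme4, which caps the core in the nucleus, was at 19.17 and 18.999 RPKM in the libraries labelled Six2, against 20.6 and 20.8 RPKM in control libraries (-0.11, adjusted p = 0.602). Psme3, a nuclear activator, was at 42.7 and 69.6 RPKM in the libraries labelled Six2, against 41.7 and 66.4 RPKM in control libraries. Its replicates were thus far apart in both groups and its interval was the widest of all members, -0.85 to 0.95.

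Assembly chaperones bring the rings together and leave the finished complex. Of 7 tested, 3 differed by more than 0 and 4 by less, with a median of -0.11. Psmg1 and Psmg2 act as a pair on the alpha ring, as do Psmg3 and Psmg4. Psmg1 (chromosome 16, 95979933 to 95990960) was at 24.8 and 27.9 RPKM in the libraries labelled Six2, against 32.6 and 32.7 RPKM in control libraries (-0.30, SE 0.105, adjusted p = 0.272). Psmg4 (chromosome 13, 34162964 to 34178173) was at 16.6 and 18.2 RPKM in the libraries labelled Six2, against 20.98 and 24.9 RPKM in control libraries (-0.38, SE 0.129, adjusted p = 0.265). Both genes had both libraries labelled Six2 below both control libraries, and Psmg4 had the largest negative difference of all members, -0.31 less its chromosome median. Their partners Psmg2 and Psmg3 had overlapping groups and differed by 0.12 and 0.05. Of the chaperones of the ATPase ring, Psmd9 was at 20.4 and 19.7 RPKM in the libraries labelled Six2, against 17.9 and 18.3 RPKM in control libraries (0.14, adjusted p = 0.524). Psmd5, the most abundant chaperone gene, was at 39.8 and 42.7 RPKM in the libraries labelled Six2, against 42.0 and 46.9 RPKM in control libraries, and its groups overlapped, as did those of Psmd10.

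Replicates differed mostly in the same direction in both groups. The median size of a member's difference between replicates, each a single library, was 0.149. That of the difference between groups, each a mean of 2 libraries, was 0.115, so the sizes are not like for like. In 34 of 43 members (79.1%) replicate 2 was above replicate 1 in both groups, against 39.7% of all genes, and in 4 members it was below in both, against 43.2%. Psme3 differed most in this way, by 0.69 between the libraries labelled Six2 and 0.66 between control libraries. The difference between replicates had a Pearson r of 0.9 between the groups across members and 0.818 across all tested genes. The test took no account of replicate number, so such a shared shift counted as scatter within groups. Psmc4, another ATPase gene, was at 96.3 and 127 RPKM in the libraries labelled Six2, against 94.0 and 126 RPKM in control libraries. Psmd7, partner of the deubiquitinase Psmd14, was at 87.6 and 108 RPKM in the libraries labelled Six2, against 74.7 and 99.8 RPKM in control libraries. Both genes were chosen here after their values were seen. The labels do not say what a replicate number marks.

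**Figure D4:**
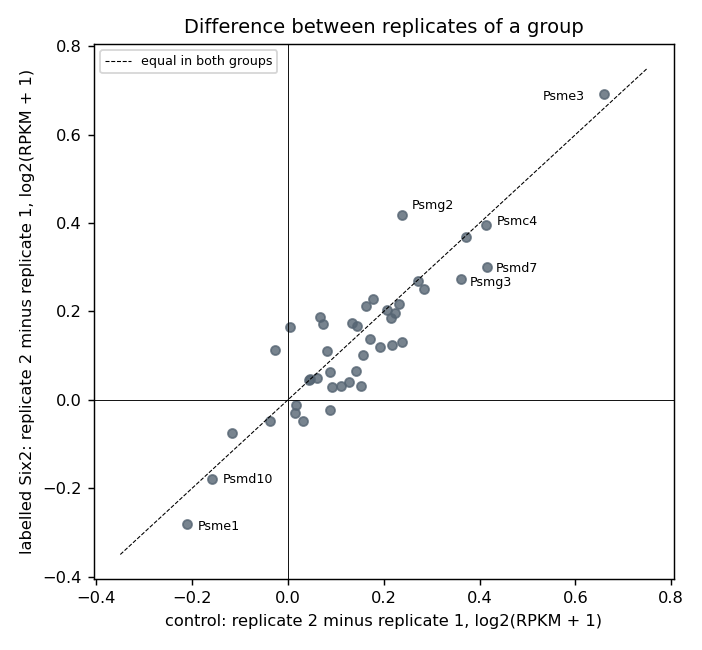
Difference between replicate 2 and replicate 1 on the log2(RPKM + 1) scale, in the libraries labelled Six2 (vertical axis) and the control libraries (horizontal axis), 1 point for each of the 43 tested members. Most points lie at the upper right along the dashed line of equal differences, with Psme3 at 0.69 and 0.66 the farthest and Psme1 at -0.28 and -0.21 at the lower left.

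Beyond the members, 32 other genes of the ubiquitin-proteasome pathway were tested, and 0 had an adjusted p under 0.05 (limma), against 0.113% of all genes. At an unadjusted p under 0.05, 1 was higher, against 7.36% of all genes, and 1 lower, against 9.66%, and the median difference of the list was -0.04. The higher gene was the deubiquitinase gene Uchl5, at 40.9 and 46.9 RPKM in the libraries labelled Six2, against 27.2 and 35.3 RPKM in control libraries (0.49, adjusted p = 0.260). Uchl5 lies on chromosome 1, whose median was 0.33. The lower gene was the shuttle factor gene Ubqln2, at 11.8 and 11.2 RPKM in the libraries labelled Six2, against 16.04 and 17.2 RPKM in control libraries (-0.50, adjusted p = 0.152). Nfe2l1 was at 57.2 and 54.3 RPKM in the libraries labelled Six2, against 69.85 and 59.3 RPKM in control libraries (-0.20, adjusted p = 0.464). The maturation factor gene Pomp was at 145 and 133 RPKM in the libraries labelled Six2, against 129 and 143 RPKM in control libraries. Adrm1 was at 134 and 146 RPKM in the libraries labelled Six2, against 113 and 123 RPKM in control libraries (0.24, adjusted p = 0.343).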

How the data were processed

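Polyadenylated RNA of 4 libraries was sequenced, 2 labelled Six2 and 2 control, grouped by their titles. The authors deposited RPKM values in a table of 24421 genes. Per the submitters' processing notes, the tools were TopHat2 2.1.1, Bowtie2, HTSeq 0.8.0, SAMtools 1.5, bcl2fastq 1.8.4, Picard 2.9.4 and FastQC 0.11.5, with mm10 and GRCm38 as builds. Annotation, gene lengths and strand setting are not stated there.

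Read totals and reads were recovered from the RPKM steps. All 14459 genes above 0 in at least 3 libraries gave whole reads within 0.001. A factor shared by all reads of a gene can be missed.

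The test was limma 3.58.1 in R 4.3.3 on log2(RPKM + 1) with a variance trend, two-sided, on 10654 genes that reached 1 RPKM in 2 or more libraries. Benjamini-Hochberg adjustment was over all of them, with a threshold of 0.05. The members and lists were chosen with earlier results of these data known. The naming rule took members with p under 0.05, each role's most abundant member and its extremes, the catalytic subunits and the activators. Positions come from GENCODE M21 on GRCm38, which placed 10610 of the tested genes. Alternatives were 2 pseudocounts, 2 filters, relative log expression factors, voom, removal of chromosome medians, a replicate block and leaving out each library.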

Additional observations from a re-analysis of the deposited data

How the results depend on the processing

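The count of members past the adjusted threshold was 0 under all alternatives except the replicate block. With each library left out in turn it ranged from 0 to 0, while the count at an unadjusted p under 0.05, 9 with all libraries, lay between 0 and 2, against 8.21% to 13.3% of all genes. With replicate number as a block, 15 members passed, 9 higher and 6 lower, against 43.5% of all genes. The labels do not say that the number pairs libraries. The difference between replicates correlated between the groups at r = 0.9 across the 43 members and 0.818 across all tested genes. The members' median difference ranged from -0.03 to 0.17 with a library left out, and the ratio of summed core and cap RPKM from 1.01 to 1.11. Of 29 named members, 22 kept their direction under every alternative run. Psmd1 differed by -0.013 with chromosome medians removed. With a library left out, the sign turned without control replicate 1 or, but for Psmd7, Six2 replicate 2: Psmc4 ranged from -0.18 to 0.23, Psmd7 from -0.036 to 0.38, Psme1 from -0.24 to 0.037, Psme3 from -0.29 to 0.40, Psmg2 from -0.094 to 0.32 and Psmg3 from -0.13 to 0.23. Among the other genes named with a difference, Pomp turned without either first replicate (-0.039 to 0.11). With voom, which weights by reads, Psmg4 (458 to 823 reads per library) had an SE of 0.168 (0.129 with limma) and an unadjusted p of 0.0758 (0.0387 with limma).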
